A study of Mus musculus with 8 samples.

Results

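The Hox cluster genes are described here across 8 transient transcriptome sequencing (TT-seq) libraries of mouse embryonic stem cells. TT-seq captures RNA made during a short pulse of 4-thiouridine (4sU), so its values follow new transcription more than stored RNA. Genes were taken by name: every row called Hoxa, Hoxb, Hoxc or Hoxd with a number, the antisense or opposite-strand transcripts named after these genes, and the noncoding RNAs Hotairm1, Hottip and Haglr. Of the 16940 genes in the deposited table, 13 taken by this rule are described here. They are set beside 47 genes that the rule takes from the GENCODE M21 annotation of the mouse genome GRCm38, 38 of them protein-coding and 9 noncoding. Of these, 10 protein-coding and 3 noncoding genes had a row in the table.

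The cells were E14 mouse embryonic stem cells in which CTCF carries an auxin-inducible degron (AID), a tag that lets the auxin IAA trigger removal of the protein. All 4 groups carry this degron and had 2 replicates each. A control overexpression line was kept without IAA or given IAA for 12 h. A line overexpressing wild-type CTCF and a line overexpressing a mutated CTCF were measured only after 12 h of IAA, and which residues are mutated is not labelled. Untreated libraries of these last lines were not analysed here, so the effect of the overexpressed protein and that of the line itself cannot be told apart. All cells grew in serum-free medium with 1000 U/mL of leukemia inhibitory factor and the inhibitors PD0325901 (1 µM) and CHIR99021 (3 µM), and were labelled with 400 µM 4sU for 15 min. The labels do not say whether the replicates were separate cultures, so the p-values measure only the spread between these samples, which may be technical.

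Hox genes encode homeodomain transcription factors that give the body axis its regional identity. In mammals they lie in 4 clusters, HoxA to HoxD, whose order along the chromosome follows the order of expression along the body: group 1 genes act earliest and nearest the head, group 13 genes latest and nearest the tail. In embryonic stem cells the clusters are largely held silent under Polycomb proteins, and retinoic acid opens them from the group 1 end. CTCF binds at several places inside the clusters and, with cohesin, forms boundaries between active and silent parts.

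The HoxA genes described here lie within chr6:52156902-52267603 on GRCm38 (mm10 in the submitters' processing notes), with 4 of 15 annotated genes listed. HoxB spans chr11:96194316-96368256 with 2 of 12 listed, HoxC chr15:102921103-103036852 with 5 of 9, and HoxD chr2:74668310-74765142 with 2 of 11. To show where letters of the CTCF core motif lie among these genes, both strands of each cluster were searched for CCA, any 2 bases, AGG, any base and GGC. There were 2 matches in HoxA, 4 in HoxB, 0 in HoxC and 1 in HoxD. The 5 matches printed here, with the 12 matched letters in capitals and 9 bases on each side, are those of HoxA and HoxD and the pair between the listed genes Hoxb13 and Hoxb9. They are read 5′ to 3′ on the strand of the match from the RefSeq copy of GRCm38.
HoxA, Hoxa11 exon, chr6:52242824-52242853, minus strand: gacagttaaCCAAAAGGTGGCtgtgaaaag
HoxA, Hoxa3 and Hoxaas3 introns, chr6:52189599-52189628, plus strand: gtatctcaaCCAAGAGGAGGCttggggtag
HoxB, between Hoxb13 and Hoxb9, chr11:96237230-96237259, minus strand: tctcagcaaCCACAAGGTGGCtcacaacca
HoxB, between Hoxb13 and Hoxb9, chr11:96265866-96265895, minus strand: agccctgtcCCACTAGGGGGCcctagaagg
HoxD, Hoxd3 and Hoxd4 introns and Hoxd3os1 exon, chr2:74715912-74715941, plus strand: gagctttgtCCAGGAGGAGGCgctgtagga

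A match is a description of the letters, not a measured binding site. Of genome windows as long as each cluster, 55.4% (HoxA), 68.9% (HoxB), 56.8% (HoxC) and 51.5% (HoxD) held at least 1 match, so the presence of the letters does not set a cluster apart. A looser search, with any 2 bases between AG and GGC, gave 7, 18, 6 and 2 matches, and 94.7% to 98.9% of windows held 1. The HoxA match inside Hoxaas3 lies 14.4 kb from the start of that gene. In HoxB the match nearer to Hoxb9 lies 5.6 kb from its start. The HoxD match lies 11.3 kb from the start of Hoxd8. The RefSeq promoter table of GRCm38, which runs from 250 bases before to 50 bases after a gene's start, matched 4 of the 13 genes by symbol (Hoxa7, Hoxc4, Hoxd13 and Hoxd8). None of these 4 promoters held the core letters on either strand, against 301 of 32851 promoters (0.916%) in the whole table.

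Libraries held 15671114 to 21561141 recovered reads, and 1 read was worth 0.836 to 1.19 normalized reads, the unit of all levels below. The untreated control libraries were deeper (21335071 and 21372946 reads) than the control libraries with IAA (15671114 and 17187354), and the part of this in the results was not tested. Replicates correlated at r = 0.995 to 0.996 across genes and libraries of different groups at 0.983 to 0.990. The replicates of wild-type CTCF differed most, with a chi-square per degree of freedom of 3.07, where read sampling alone gives about 1. It was 1.30 in the untreated control, 1.38 in the control with IAA and 1.57 with mutated CTCF. The fit shares the spread of a gene across groups, and the part of this difference in the results was not tested. All 7 embryonic stem cell markers were tested, with summed levels of 49166 to 59811 normalized reads per library. A gene was tested where its mean over the 8 libraries reached 10 normalized reads, which 11 of the 13 Hox genes did. Adjusted p-values are limma's, adjusted over all 15818 tested genes within each comparison, and 0.05 is the threshold.

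The Hox genes were weakly transcribed, and their levels were ranked per length of annotated exon. Whether reads were counted over exons or whole genes is not given in the sources used here, and the order depends on that divisor. Over the 8 libraries Hoxc12, a group 12 gene of HoxC, was highest at 91.4 normalized reads per kb of exon, next to the noncoding RNA Hotairm1 at 87.7. Hoxc13 followed at 61.9 and Hoxb9 at 38.2. Hoxc4, Hoxc5 and Hoxc11 lay close together at 26.5, 24.2 and 22.0 per kb. The remaining 6 genes lay between 2.58 (Hoxa7) and 5.73 (Hoxb13). The order was not the same in every group: Hotairm1 led in the control line in both conditions, with 84.5 per kb without IAA and 117 with IAA, and Hoxc12 led in the lines with wild-type CTCF (117) and mutated CTCF (90.2). Hoxc13 was second in the untreated control at 73.7 per kb, above Hoxc12 at 59.2. Divided by whole gene length, an alternative added after seeing the data, Hoxc12 led in all 4 groups, with a mean over the libraries of 50.9 per kb. Hoxc13 (19.7), Hoxb9 (19.2) and Hotairm1 (17.2) then lay close together, Hoxc11 was at 13.5, and Hoxc4 (3.79) and Hoxc5 (1.49) were among the low genes.

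**Figure D1:**
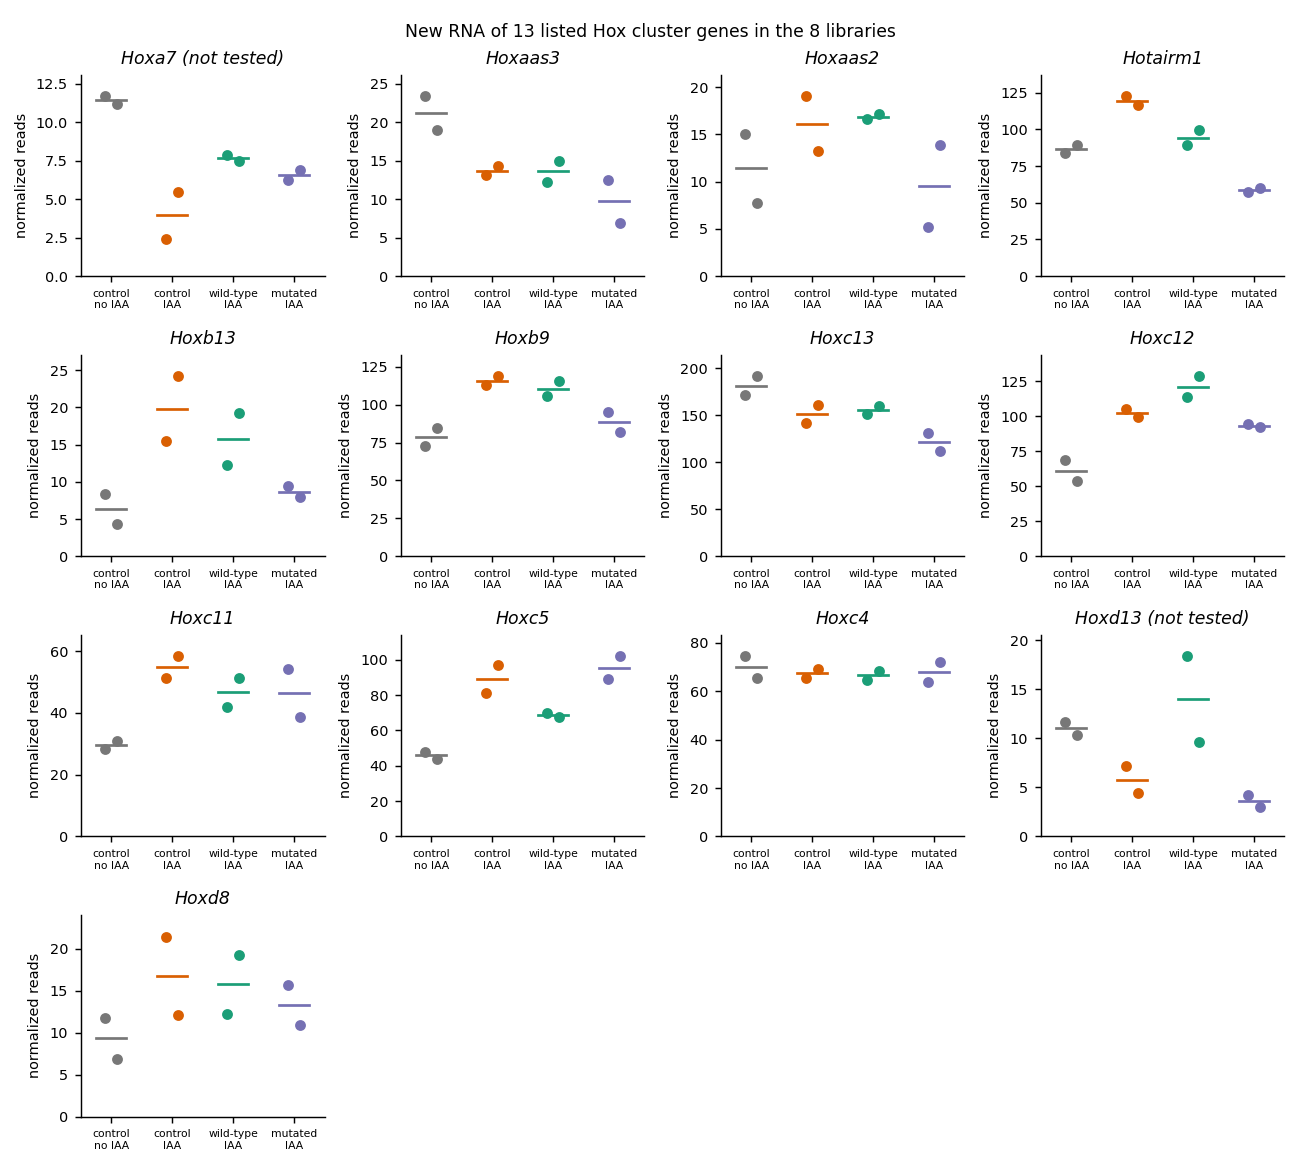
New RNA of 13 listed Hox cluster genes, 1 panel per gene, ordered by cluster and from the group 13 end to the group 1 end. The vertical axis is normalized reads on a linear scale from 0, each point is 1 library and each line the mean of 2 libraries. In the mutated CTCF line Hotairm1 sits at 57.5 and 60.3, below all other libraries, while Hoxc4 stays between 63.7 and 74.4 in all 8.

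At the group 1 end of HoxA lies Hotairm1, a noncoding RNA known from retinoic acid treatment and from myeloid cells. Hotairm1 (ENSMUSG00000087658.2, chr6:52156902-52162119, plus strand) had 83.6 and 89.7 normalized reads in the untreated control and 123 and 117 in the control with IAA. It had 89.2 and 99.5 with wild-type CTCF and 57.5 and 60.3 with mutated CTCF. The control libraries with IAA were highest, those with mutated CTCF lowest, and the wild-type libraries lay next to the untreated ones. The mean rose with IAA from 86.6 ± 4.29 to 119.6 ± 4.32, a log2 ratio of 0.46 (SE 0.16, adjusted p = 0.018). With mutated CTCF it fell to 58.9 ± 2.01, a log2 ratio of -1.01 (SE 0.16, adjusted p = 2.4e-06) against the control with IAA. Between the mutated and the wild-type form (94.3 ± 7.30) it was -0.67 (SE 0.16, adjusted p = 8.7e-04). The difference of wild-type CTCF from the control with IAA was -0.34 (SE 0.16, adjusted p = 0.094).

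The fall of Hotairm1 with mutated CTCF passed the threshold in all 17 alternatives, both against the control with IAA and against wild-type CTCF. Its rise with IAA did not: the adjusted p was 0.12 and 0.055 without untreated replicates 1 and 2, 0.098 without IAA replicate 1 and 0.13 by DESeq2, in a range of 0.0064 to 0.13 over 19 alternatives. How strand was handled in counting is not given in the sources used here, so reads of genes that overlap on opposite strands cannot be told apart.

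The antisense transcripts of HoxA and Hoxa7 had few reads. Hoxaas2 (ENSMUSG00000056445.8, chr6:52165674-52169564), a noncoding transcript that overlaps Hoxa3 on the opposite strand, ranged from 5.22 to 19.1 normalized reads over the 8 libraries. Its 2 mutated CTCF libraries, at 5.22 and 13.8, lay below its wild-type libraries, at 16.6 and 17.1, and the log2 fold change of -0.89 missed the threshold (SE 0.40, adjusted p = 0.081). Without mutated CTCF replicate 2, Hoxaas2 passed against both wild-type CTCF and the control with IAA. Hoxaas3 (ENSMUSG00000085696.8, chr6:52175217-52215076), an antisense transcript across Hoxa3 to Hoxa7, had 23.4 and 19.0 in the untreated control. It had 13.1 and 14.3 in the control with IAA, 12.2 and 15.0 with wild-type CTCF, and 12.5 and 6.92 with mutated CTCF. The untreated libraries were the highest of all 8, and the log2 fold change with IAA was -0.59 (SE 0.36, adjusted p = 0.21). Hoxa7 (ENSMUSG00000038236.8, chr6:52214491-52221854), which overlaps Hoxaas3 on the opposite strand, ranged from 2.38 to 11.7 normalized reads and was under the minimum mean at 7.42. Its highest libraries were the untreated ones, at 11.7 and 11.2, and its lowest the control with IAA, at 2.38 and 5.50, which rest on 2 and 5 reads. Fitted without the minimum, Hoxa7 had a log2 ratio of -1.41 with IAA (SE 0.48). Every gene in the deposited table had at least 10 reads in its second highest library. Hoxa7 reached that through its untreated libraries alone, at 14 and 13 reads, so its fall cannot be told apart from the selection of rows.

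HoxB was listed by Hoxb13, its most 5′ gene and a regulator of tail and prostate development, and Hoxb9, which acts in the thoracic axis. Hoxb9 (ENSMUSG00000020875.9, chr11:96271457-96276595) had 72.7 and 84.5 normalized reads in the untreated control and 113 and 119 in the control with IAA. It had 106 and 116 with wild-type CTCF and 95.1 and 82.1 with mutated CTCF. Both groups of IAA-treated cells without the mutated form lay above the untreated libraries, and the mutated CTCF libraries reached down to them. Hoxb9 rose with IAA from 78.6 ± 8.32 to 116 ± 3.98, a log2 ratio of 0.56 (SE 0.15, adjusted p = 0.0033). With mutated CTCF it was 88.6 ± 9.21, which was below the control with IAA by a log2 ratio of -0.39 (SE 0.15, adjusted p = 0.045).

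Hoxb13 (ENSMUSG00000049604.3, chr11:96194316-96197447) had 8.36 and 4.31 normalized reads in the untreated control and 15.5 and 24.2 in the control with IAA. It had 12.2 and 19.3 with wild-type CTCF and 9.40 and 7.91 with mutated CTCF. The untreated libraries rest on 10 and 5 reads and those with IAA on 13 and 22, and the groups did not overlap. The log2 fold change with IAA was 1.53 (SE 0.40, adjusted p = 0.0022), the largest among the 11 tested genes. With a pseudocount of 10 it was 0.87, next to 0.82 for Hoxc5. Against the control with IAA, mutated CTCF gave -1.08 (SE 0.40, adjusted p = 0.032), and -0.66 with that pseudocount.

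The IAA calls of both HoxB genes were lost when 1 library was left out. Hoxb9 had an adjusted p of 0.074 without untreated replicate 1 and 0.061 by DESeq2 (range 0.0011 to 0.074 over 19 alternatives). Hoxb13 had 0.075 without untreated replicate 2, 0.062 without IAA replicate 2 and 0.060 by DESeq2 (range 7.6e-04 to 0.075 over 18 alternatives). The falls with mutated CTCF were lost more often. Hoxb9 had 0.053 and 0.055 without untreated replicates 1 and 2, 0.096 and 0.16 without IAA replicates 1 and 2 of the control, and 0.28 without mutated CTCF replicate 2 (range 0.020 to 0.28 over 17 alternatives). Hoxb13 had 0.26 without IAA replicate 2 of the control, and 0.055 and 0.13 without mutated CTCF replicates 1 and 2 (range 0.021 to 0.26 over 16 alternatives).

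HoxC was listed by 5 genes, of which 3 rose with IAA. These were Hoxc12, Hoxc11 and Hoxc5, which lie next to each other among the listed genes, while Hoxc13 and Hoxc4 at the outer ends were not called. Hoxc12 (ENSMUSG00000050328.2, chr15:102936757-102938609), a posterior group 12 gene, had 68.5 and 53.4 normalized reads in the untreated control and 105 and 99.0 in the control with IAA. It had 114 and 128 with wild-type CTCF and 94.0 and 91.9 with mutated CTCF. All IAA-treated libraries lay above the untreated ones, and no 2 of the 4 groups overlapped. The log2 fold change with IAA was 0.74 (SE 0.16, adjusted p = 2.4e-04), from 60.99 ± 10.7 to 102 ± 4.13. Neither form of CTCF differed from the control with IAA past the threshold (0.24 for wild-type, adjusted p = 0.25, and -0.13 for mutated, adjusted p = 0.57, SE 0.16 each), and the forms differed by -0.37 (SE 0.16, adjusted p = 0.064).

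Hoxc11 (ENSMUSG00000001656.3, chr15:102954427-102957708), a posterior gene of hindlimb and tail, had 28.4 and 31.0 normalized reads in the untreated control and 51.2 and 58.3 in the control with IAA. It had 42.0 and 51.4 with wild-type CTCF and 54.3 and 38.6 with mutated CTCF. All 6 libraries with IAA were above both untreated ones, and the groups with IAA overlapped each other. Hoxc11 rose with IAA by 0.86 on the log2 scale (SE 0.22, adjusted p = 0.0021), from 29.7 ± 1.85 to 54.8 ± 5.00. By DESeq2 its adjusted p was 0.053 (range 8.7e-04 to 0.053 over 18 alternatives).

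The row named Hoxc5 (ENSMUSG00000022485.3, chr15:102967443-103017429) had 47.6 and 44.0 normalized reads in the untreated control and 81.0 and 96.8 in the control with IAA. It had 69.9 and 67.4 with wild-type CTCF and 88.8 and 102 with mutated CTCF. The wild-type libraries lay between the untreated ones and those of the other groups with IAA, which overlapped each other. The mean rose with IAA from 45.8 ± 2.60 to 88.9 ± 11.2, a log2 ratio of 0.94 (SE 0.17, adjusted p = 3.2e-05). Between the CTCF forms it was higher with the mutated one (95.3 ± 9.20) than with the wild-type one (68.7 ± 1.80), with a log2 ratio of 0.46 (SE 0.17, adjusted p = 0.035). The gene model of this row runs on the same strand across Hoxc10, Hoxc9, Hoxc8 and Hoxc6 and the microRNA genes Mir196a-2 and Mir615, none of which is listed, so its reads may come from any of these genes.

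Hoxc13 (ENSMUSG00000001655.6, chr15:102921103-102928814), a gene of hair and nail, had the most reads of the 13. It had 171 and 191 normalized reads in the untreated control, 142 and 161 in the control with IAA, 151 and 159 with wild-type CTCF, and 131 and 112 with mutated CTCF. The untreated libraries were highest and the mutated CTCF ones lowest, with no overlap with any other group. The fall from wild-type (155 ± 5.77) to mutated CTCF (121 ± 13.4) was 0.36 on the log2 scale (log2 fold change -0.36, SE 0.13, adjusted p = 0.025). Against the control with IAA (151 ± 13.3) it was -0.32 (SE 0.13, adjusted p = 0.048). The difference with IAA in the control line was -0.26 (SE 0.13, adjusted p = 0.10), and passed as lower when the libraries were rescaled to the same total.

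Hoxc4 (ENSMUSG00000075394.4, chr15:103018934-103036852), a gene of the neck and upper trunk, had 74.4 and 65.5 in the untreated control, 65.5 and 69.3 in the control with IAA, 64.7 and 68.5 with wild-type CTCF, and 63.7 and 72.2 with mutated CTCF. All 4 groups overlapped. Its log2 fold changes in the 6 comparisons lay between -0.07 and 0.03 with an SE of 0.18.

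Within HoxC the rises of Hoxc12 and Hoxc5 with IAA passed in all 19 alternatives, with adjusted p of at most 0.025 and 0.0053. The difference of Hoxc5 between the CTCF forms was lost without wild-type replicate 1 (adjusted p = 0.075) or 2 (0.13) and without mutated replicate 1 (0.051) or 2 (0.22), in a range of 0.027 to 0.22 over 17 alternatives. The fall of Hoxc13 between the forms was lost without wild-type replicate 2 (0.11) or mutated replicate 2 (0.23), in a range of 0.017 to 0.23. Its fall against the control with IAA was lost without untreated replicates 1 (0.068) and 2 (0.070), IAA replicate 2 of the control (0.28) and mutated replicate 2 (0.35), in a range of 0.017 to 0.35. The log2 fold change itself was -0.32 without either untreated library, -0.23 without that IAA replicate and -0.21 without that mutated replicate.

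HoxD was listed by 2 genes of few reads. Hoxd8 (ENSMUSG00000027102.4, chr2:74704615-74707933), a trunk gene that overlaps Hoxd3os1 on the opposite strand, had 11.7 and 6.90 normalized reads in the untreated control and 21.4 and 12.1 in the control with IAA. It had 12.2 and 19.3 with wild-type CTCF and 15.7 and 10.9 with mutated CTCF. The groups with IAA overlapped each other, and the log2 fold change with IAA was 0.78 (SE 0.38, adjusted p = 0.11). Without IAA replicate 2 of the control, Hoxd8 passed as higher. Hoxd13 (ENSMUSG00000001819.4, chr2:74668310-74671599), the digit gene at the 5′ end of the cluster, ranged from 2.97 to 18.4 normalized reads and was under the minimum mean at 8.59. It was lowest with mutated CTCF, at 4.18 and 2.97, which rest on 4 and 3 reads, and had 18.4 and 9.63 with wild-type CTCF. Fitted without the minimum, the difference between the forms was -1.66 (SE 0.47). Hoxd13 reached 10 reads in the untreated libraries (14 and 12) and in wild-type replicate 1 (21), and not with mutated CTCF. Its low value there cannot be told apart from the selection of rows.

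The comparison of IAA with no IAA in the control line asks what changes with IAA, which is given to remove CTCF. All groups given IAA carry the degron, so an effect of IAA itself and the loss of CTCF cannot be told apart. Of the 11 tested Hox genes, 6 rose (Hoxb13, Hoxc5, Hoxc11, Hoxc12, Hoxb9 and Hotairm1) and 0 fell, with log2 fold changes of 0.46 to 1.53. Over all tested genes 37.7% were called, 19.4% higher and 18.4% lower, so the Hox share was above that of all genes among higher calls and below it among lower ones. The median log2 fold change was 0.56 over the 11 genes and -0.0017 over all tested genes, and the tested Hox genes had a median SE of 0.18 against 0.10. Rescaled to the same total, 6 were higher and 1 lower (Hoxc13), with 16.2% of all genes higher and 25.9% lower. By DESeq2, 2 of the 6 calls were kept (Hoxc5 and Hoxc12), with 24.9% of all genes called, and by edgeR all 6, with 41.6%. These counts cover the tested genes and not the clusters as a whole: most annotated Hox genes had no row, and the minimum mean left out Hoxa7 and Hoxd13. The measured means of both were lower with IAA. Both had a row because of their untreated libraries, so these lower means cannot be told apart from the selection of rows.

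Wild-type CTCF under IAA, set against the control with IAA, asks what the overexpressed protein changes. Of the 11 genes 0 were called by limma, against 31.6% of all tested genes (21.5% higher and 10% lower), and 2 had an unadjusted p under 0.05. The edgeR test called 2 (Hotairm1 and Hoxc5, both lower), with 31.8% of all genes called, and DESeq2 called 0, with 20.1%. The log2 fold changes ran from -0.36 (Hoxc5, SE 0.17, adjusted p = 0.11) to 0.24 (Hoxc12), with a median of -0.07 against 0.06 over all tested genes. With an SE of 0.13 to 0.40 per gene, small changes were not detectable.

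Mutated CTCF under IAA was set against the same control. Of the 11 genes 4 fell (Hoxb13, Hotairm1, Hoxb9 and Hoxc13) and 0 rose, with log2 fold changes of -0.32 to -1.08. Over all tested genes 34.3% were called, 22% higher and 12.4% lower, so the share of Hox genes called was near that of all genes, while its calls were all lower. Of the 4, Hoxb13 (adjusted p = 0.14) and Hoxb9 (0.10) did not pass between the forms. After rescaling by median of ratios the split over all genes was 17.1% higher and 17% lower, and the Hox count stayed at 4 lower. Without the mean-variance trend in the fit, 1 of the 4 calls (Hotairm1) was kept, and the share of all genes called was 20.4%. The Hox count was 2 without untreated replicate 1 and 2 without untreated replicate 2, with 32.5% of all genes called in either fit. It was 1 without IAA replicate 2 of the control, with 27.2% of all genes called. Without mutated replicate 2 (25.9%) it was also 2, of which Hotairm1 was the 1 call kept and Hoxaas2 was gained. This comparison, that of wild-type CTCF and the IAA effect share the control libraries with IAA, so their values are given side by side and not as separate evidence.

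The direct comparison of the CTCF forms tests whether they differ and shares no library with the IAA effect. Hotairm1 fell by 0.67 and Hoxc13 by 0.36 on the log2 scale with the mutated form, and Hoxc5 was higher by 0.46. These were 1 higher and 2 lower of the 11, with 34.7% of all tested genes called, 16.3% higher and 18.4% lower, so the share called was not above that of all genes, and without wild-type replicate 2 it was 1 gene (Hotairm1), with 27% of all genes called. The measured differences of 9 of the 11 genes were below 0, with a median of -0.36 against -0.0087 over all tested genes. Hoxc4 (0.03) and Hoxc5 were the exceptions.

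**Figure D2:**
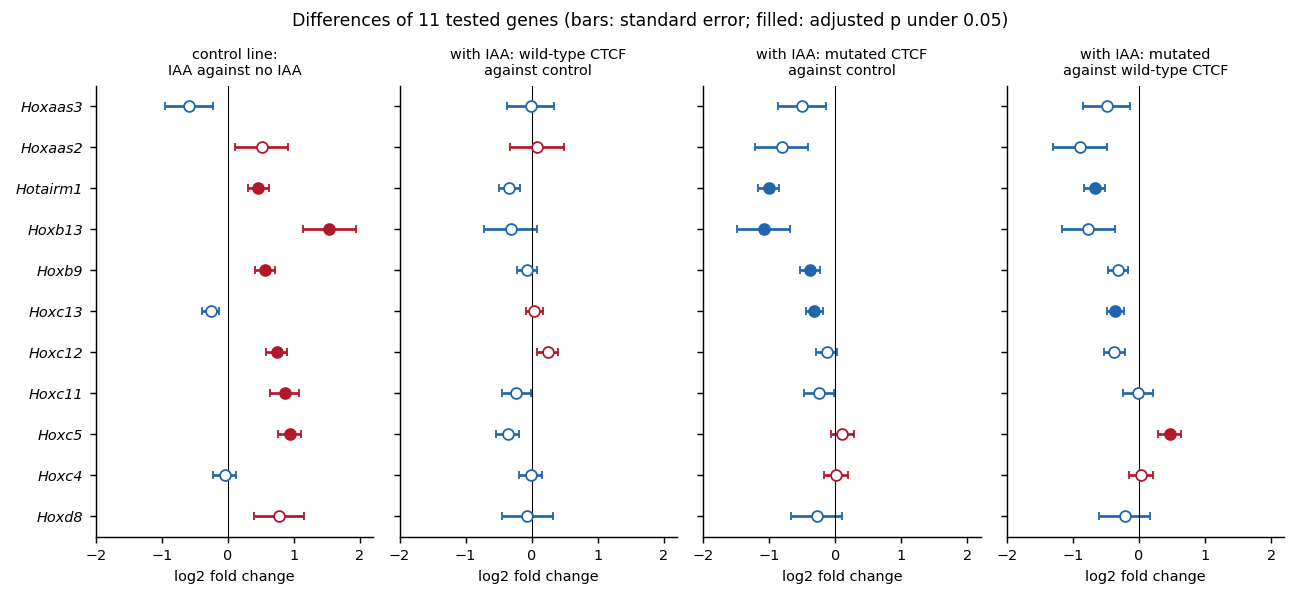
Log2 fold changes of 11 tested Hox genes in 4 comparisons, with bars of 1 standard error from the limma fit (2 libraries per group); filled points passed an adjusted p of 0.05, red is higher and blue lower. With IAA the filled points are all red, from 0.46 to 1.53, and with mutated CTCF against the control with IAA they are all blue, from -0.32 to -1.08.

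Set against the untreated control, where line and IAA differ together, Hoxc12, Hoxc11 and Hoxc5 were higher with both CTCF forms. With wild-type CTCF, 5 of 11 were higher (Hoxb13, Hoxc12, Hoxc11, Hoxc5 and Hoxb9) and 0 lower, against 43.2% of all tested genes called, 27.6% higher and 15.6% lower. Hoxc12 was the one whose call held in all 19 alternatives (log2 fold change 0.99, SE 0.16, adjusted p = 2.9e-06). By DESeq2 it was the 1 call of these 5 that was kept, with 30% of all genes called. By edgeR all 5 were kept and Hoxc13 was lower, with 47.5%. With mutated CTCF, 3 were higher (Hoxc5, Hoxc12 and Hoxc11) and 3 lower (Hoxaas3, Hoxc13 and Hotairm1), against 37.8% called, 24% higher and 13.7% lower. Here Hoxc5 (1.04, SE 0.17, adjusted p = 6.2e-06) and Hoxc13 (-0.58, SE 0.13, adjusted p = 3.0e-04) held in all 17. Rescaled to the same total, Hoxc13 was also lower with wild-type CTCF, giving 5 higher and 1 lower, with 20.4% of all genes higher and 24.4% lower. With mutated CTCF that rescaling left 2 higher and 3 lower, with 16.4% and 21.6% of all genes.

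Several of these calls were lost without 1 library. With wild-type CTCF, without untreated replicate 1 the adjusted p was 0.12 for Hoxb9 and 0.12 for Hoxc11. Without untreated replicate 2 it was 0.19 for Hoxb13, 0.060 for Hoxc11 and 0.064 for Hoxc5. The log2 fold change of Hoxb13 was then 0.81 in place of 1.22, and 0.65 with a pseudocount of 10. Leaving out wild-type replicate 2 gave 0.17 for Hoxb13, 0.073 for Hoxb9 and 0.18 for Hoxc11. The ranges over the alternatives were 0.0086 to 0.19 (Hoxb13), 0.0067 to 0.15 (Hoxb9), 0.016 to 0.22 (Hoxc11) and 0.0048 to 0.16 (Hoxc5). With mutated CTCF, leaving out untreated replicate 1 gave 0.13 for Hoxaas3 and 0.15 for Hoxc11. Leaving out untreated replicate 2 gave 0.059 for Hotairm1, 0.074 for Hoxc11 and 0.084 for Hoxc12. Hoxc11 had 0.33 without mutated replicate 1, with a log2 fold change of 0.37 in place of 0.61. Hoxaas3 had 0.21 without mutated replicate 2, with -0.71 in place of -1.09, and -0.67 with a pseudocount of 10. Those ranges were 0.0054 to 0.21 (Hoxaas3), 0.012 to 0.33 (Hoxc11), 0.0012 to 0.059 (Hotairm1) and 9.7e-04 to 0.084 (Hoxc12).

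Along each cluster, distance is given from the group 13 end to the gene start. In HoxC, Hoxc13 lies at 0.0 kb, Hoxc12 at 15.7, Hoxc11 at 33.3, Hoxc5 at 46.3 and Hoxc4 at 97.8 kb. The 3 rows that start at 15.7 to 46.3 kb rose with IAA, and the log2 fold changes of the outer genes were -0.26 and -0.05. The Hoxc5 model runs on from its start almost to Hoxc4, so where along it the reads lie is not known. In HoxA the 3 tested genes described lie in the group 1 part, from 92.4 kb (Hoxaas3) through 101.9 (Hoxaas2) to 110.7 kb (Hotairm1). Their differences between mutated and wild-type CTCF were -0.49, -0.89 and -0.67, with Hotairm1 past the threshold. In HoxB, Hoxb13 at 0.0 kb and Hoxb9 at 77.1 kb both rose with IAA, with the 2 printed matches to the core letters between them at 42.9 and 71.6 kb. Differences by position were not tested.

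**Figure D3:**
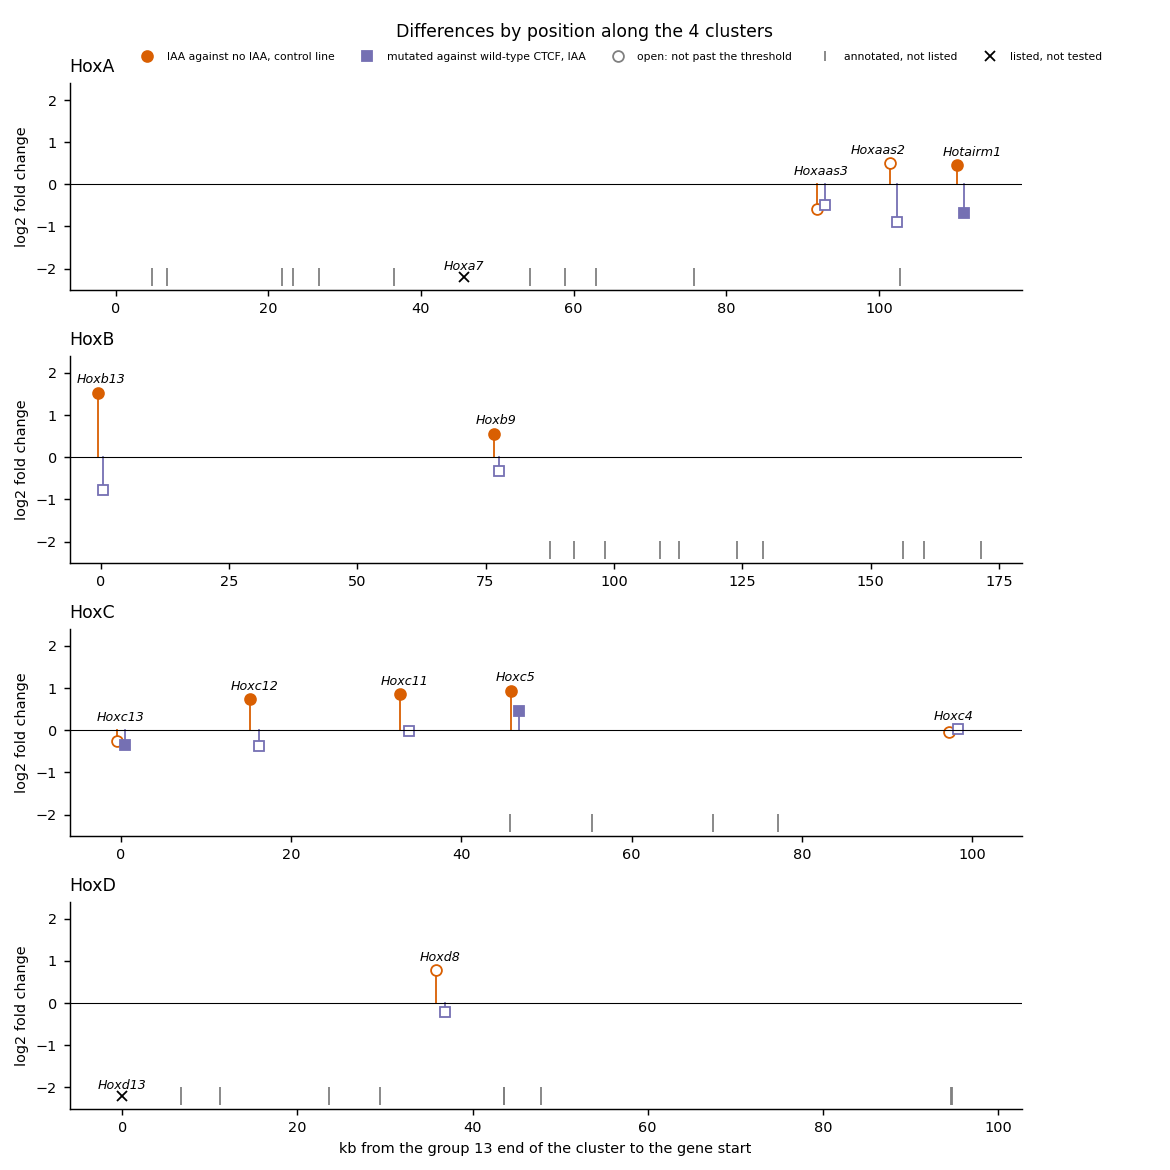
Log2 fold changes of the tested Hox genes against distance in kb from the group 13 end of each cluster to the gene start, for the control line with against without IAA (orange circles) and mutated against wild-type CTCF (purple squares); filled symbols passed an adjusted p of 0.05, grey ticks are annotated genes without a row and crosses are listed genes under the minimum mean. In HoxC the filled orange circles lie at 15.7, 33.3 and 46.3 kb, the last being the start of the long Hoxc5 model, and in HoxA the filled purple square lies at the group 1 end.

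Summed over the genes described, HoxA had 134 and 128 normalized reads in the untreated control, 157 and 149.6 in the control with IAA, 126 and 139 with wild-type CTCF, and 81.5 and 88.0 with mutated CTCF. The mutated CTCF libraries were the lowest, with no overlap with another group, and Hotairm1 makes up most of the sum. The HoxB sums were 81.1 and 88.8, then 129 and 143, then 118 and 135, and 104 and 90.0 in the same order of groups, with both untreated libraries lowest. HoxC had 390.3 and 385, 444 and 484, 441 and 475, and 432 and 416. HoxD had 23.4 and 17.2, 28.6 and 16.5, 30.6 and 28.9, and 19.9 and 13.8, and its control groups overlapped.

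Genes that flank the clusters were taken as a list: 25 of 31 names were listed and all 25 tested, at 28.9 to 1067 kb from the cluster edge. The names Lnp and Kiaa1715, which had no row, are other names of Lnpk, which was listed. With IAA 10 rose and 4 fell (median 0.12), with 37.7% of all tested genes called, and between the CTCF forms 3 were higher with the mutated one and 6 lower (median -0.06), with 34.7% of all genes called. Calcoco2, an autophagy receptor 82.4 kb from the group 13 end of HoxB, rose with IAA from 522 ± 19.2 to 1025 ± 5.34 normalized reads (log2 fold change 0.97, adjusted p = 1.1e-16). With mutated CTCF it was 667 ± 1.94 against 1125 ± 10.04 with the wild-type form (-0.75, adjusted p = 4.8e-13). Nfe2, an erythroid factor 211.4 kb from HoxC, fell with IAA by 1.55 on the log2 scale (adjusted p = 8.5e-04, and 0.051 without IAA replicate 2 of the control; log2 fold change -0.96 with a pseudocount of 10). Hnrnpa1, an RNA-binding protein beside it, rose by 0.36 and Snx10, a sorting nexin on the group 1 side of HoxA, by 0.31. Between the forms Ttll6, the tubulin glutamylase 28.9 kb from Hoxb13, fell by 0.51 (adjusted p = 0.0054, and 0.12 without mutated replicate 1). Mtx2, a mitochondrial gene 60.7 kb from HoxD, fell by 0.34 (adjusted p = 5.4e-08). Jazf1, a zinc finger gene 501.2 kb from HoxA, fell by 0.41 (adjusted p = 0.043); this was lost without any of 5 libraries: untreated replicate 1 (0.069) or 2 (0.068), wild-type replicate 1 (0.15) or 2 (0.060), or mutated replicate 2 (0.48). The log2 fold change of Jazf1 was -0.19 without mutated replicate 2 and -0.63 without mutated replicate 1.

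Upstream of the Hox genes stand the caudal factors, which switch on trunk Hox genes, and retinoic acid, which acts through its receptors. Cdx1 was the listed member among the 6 caudal and ParaHox genes. It had 236 and 253 normalized reads in the untreated control, 709 and 752 in the control with IAA, 584 and 607 with wild-type CTCF, and 237 and 277 with mutated CTCF. The mutated CTCF libraries lay at the untreated level and below the other IAA groups. Cdx1 rose with IAA by 1.58 on the log2 scale (SE 0.08, adjusted p = 6.2e-19) and between the forms fell by 1.21 (SE 0.08, adjusted p = 6.0e-15).

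Of 10 retinoic acid response genes 8 were tested. With IAA 3 rose and 2 fell (median 0.42), against 19.4% of all genes higher and 18.4% lower. With mutated against wild-type CTCF 0 were higher and 4 lower (median -0.54), against 16.3% and 18.4%. Rarb, a retinoic acid receptor that is itself a direct target, had 283 and 272 normalized reads in the untreated control and 605 and 597 in the control with IAA. It had 403 and 408 with wild-type CTCF and 171 and 160.2 with mutated CTCF, so that no groups overlapped. Its log2 fold changes were 1.11 with IAA (SE 0.09, adjusted p = 1.0e-13) and -1.29 between the forms (SE 0.09, adjusted p = 3.2e-15). Stra8, a retinoic acid target of germ cells, went from 381 ± 22.1 to 906 ± 3.96 with IAA (1.25), and was 228 ± 10.3 with mutated against 418 ± 11.9 with wild-type CTCF (-0.87). Crabp1, which binds retinoic acid in the cytoplasm, fell with IAA by 1.06, and Dhrs3, a reductase of retinal, rose by 0.23 (adjusted p = 0.033; 0.12 and 0.13 without untreated replicates 1 and 2, 0.083 and 0.13 without IAA replicates 1 and 2). Between the forms Stra6, a vitamin A transporter, fell by 1.82 (adjusted p = 9.9e-05; log2 fold change -1.05 with a pseudocount of 10) and the receptor Rarg by 1.03 (adjusted p = 1.3e-09).

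TALE homeodomain proteins bind DNA together with Hox proteins, and 10 of 11 were tested. With IAA 5 rose and 3 fell (median 0.08), and with mutated against wild-type CTCF 1 was higher and 5 lower (median -0.19), beside 37.7% and 34.7% of all genes called. Meis2 had 8322 and 8254 normalized reads with wild-type CTCF and 3520.0 and 3595 with mutated CTCF, a log2 ratio of -1.22 (SE 0.03, adjusted p = 6.0e-27). Its untreated libraries had 4996 and 5121. Pbx2 rose with IAA by 0.46 (adjusted p = 0.013) and fell between the forms by 0.42 (adjusted p = 0.026). The first was lost without untreated replicate 1 (0.20) or IAA replicate 2 (0.13), the second without wild-type replicates 1 (0.051) or 2 (0.098) or mutated replicate 1 (0.25). Meis1 (-0.38) and Pknox2 (-0.36) also fell between the forms, and Tgif1 was the 1 that was higher with the mutated one (0.22, adjusted p = 0.0012; 0.051 without wild-type replicate 1 and 0.053 without the trend). Tgif1 was named for this comparison after its values were seen. With IAA Pknox2 (-0.48), Tgif1 (-0.36) and Tgif2 (-0.29) fell, the last with an adjusted p of 0.070 without IAA replicate 1.

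**Figure D4:**
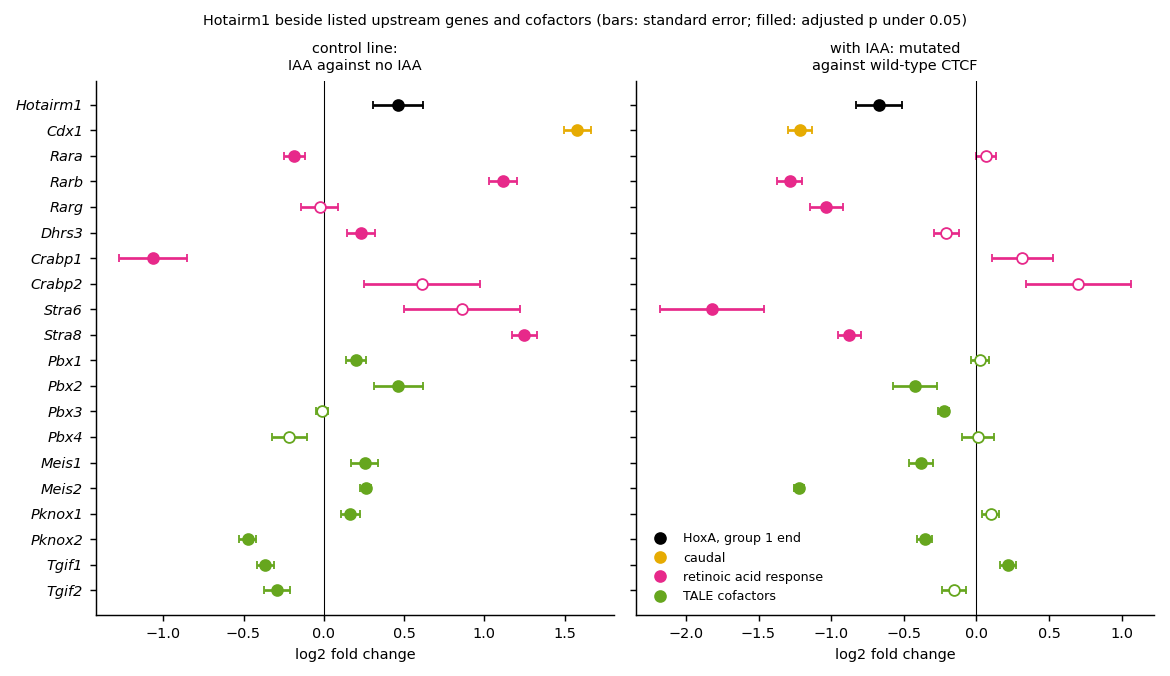
Log2 fold changes, with bars of 1 standard error, of Hotairm1 and the tested caudal, retinoic acid and TALE genes, for the control line with against without IAA (left) and mutated against wild-type CTCF with IAA (right); filled points passed an adjusted p of 0.05. On the right Cdx1 (-1.21), Rarb (-1.29), Rarg (-1.03), Stra6 (-1.82) and Meis2 (-1.22) lie on the same side as Hotairm1 (-0.67), while Tgif1 (0.22) was higher, and Crabp1 (0.32) and Crabp2 (0.70) lie on the other side as open points.

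All 19 listed Polycomb and Trithorax regulators, which keep Hox genes silent or active, were tested. With IAA 4 rose and 5 fell (median 0.03), and between the forms 5 were higher with the mutated one and 4 lower (median -0.01), where 37.7% and 34.7% of all genes were called. Cbx2, a Polycomb reader, fell with IAA by 0.61 (adjusted p = 0.0015; 0.051 without IAA replicate 2) and Rnf2, the Polycomb ubiquitin ligase, by 0.30. Kdm6b, an eraser of the Polycomb mark, rose by 0.28 (adjusted p = 0.019; 0.11 and 0.095 without untreated replicates 1 and 2, 0.17 without IAA replicate 2) and Bmi1 by 0.26 (adjusted p = 0.016; 0.088 and 0.075 without untreated replicates 1 and 2, 0.17 without IAA replicate 2). Between the forms Bmi1 fell by 0.61, Cbx2 by 0.49 (adjusted p = 0.012; 0.22 without wild-type replicate 2, with a log2 fold change of -0.32, and 0.051 without mutated replicate 1) and Ash1l by 0.23, while the Trithorax subunit Wdr5 was higher by 0.18.

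Markers of other cell types that such a culture could hold were counted beside these results, and their part in the Hox differences was not tested. Of 7 endoderm markers 4 were listed, with Sox17, Foxa2 and Afp without a row, and their summed level was 195 to 228 normalized reads in the untreated control and 269 to 331 with IAA. Among them Pdgfra rose with IAA by 1.78 and Gata4 by 0.64, and Gata6 fell by 0.59. Without untreated replicate 2 the log2 fold change of Gata6 was -0.34 (adjusted p = 0.37) and without IAA replicate 1 -0.36 (0.29). With wild-type CTCF the endoderm sum was 233 to 262 and with mutated CTCF 256 to 259. Of 7 mesoderm markers Kdr and T were listed and Kdr was tested, with sums of 93.1 to 104 without IAA, 124 to 153 with IAA, 173 to 177 with wild-type CTCF and 79.1 to 97.2 with mutated CTCF. Kdr rose with IAA by 0.51 (adjusted p = 0.0056; 0.10 without untreated replicate 2, 0.12 without IAA replicate 2) and fell by 0.98 between the forms. Of 7 neural markers Nes and Pax6 were listed. In the same order their sums, mostly Nes, were 156 to 159, 221 to 223, 223 to 263 and 274 to 284. Nes rose with IAA by 0.48 and was higher with mutated than with wild-type CTCF by 0.27 (adjusted p = 0.043, and 0.060 without the trend). Pax6 was under the minimum mean and went the other way between the forms. It had 19.2 and 11.8 normalized reads with wild-type CTCF and 3.13 and 5.93 with mutated CTCF. Of 7 trophoblast markers 3 were listed, with sums of 615 to 618, 648 to 700.4, 887 to 979 and 611 to 655, and Tfap2c (-0.55) and Eomes (-0.81) fell between the forms, the latter with -0.57 and an adjusted p of 0.083 without mutated replicate 1 and 0.085 without the trend. Of 7 fibroblast markers Pdgfrb had a row, at 88.6 to 98.3, 155 in both libraries, 97.9 to 139 and 88.0 to 90.9. Pdgfrb rose with IAA by 0.73 (adjusted p = 1.7e-04). Between the forms it fell by 0.38 (adjusted p = 0.047, and 0.15 without the trend). That log2 fold change was -0.63 without wild-type replicate 1 and -0.13 without wild-type replicate 2.

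Of the 7 embryonic stem cell markers, 2 rose and 2 fell with IAA and 2 were higher and 3 lower with mutated than with wild-type CTCF, where 37.7% and 34.7% of all genes were called. Tfcp2l1 rose with IAA by 0.47, Tdgf1 by 0.13 (adjusted p = 0.011; 0.060 with a log2 fold change of 0.083 after rescaling to the same total, 0.064 and 0.052 without untreated replicates 1 and 2, 0.13 without IAA replicate 1), and Zfp42 fell by 0.15 and Esrrb by 0.14. Between the forms Klf4 was higher by 0.28, Zfp42 lower by 0.19, Nanog by 0.18 and Pou5f1 by 0.19 (adjusted p = 0.016). Fitted without the trend, the calls of Nanog (adjusted p = 0.059) and Pou5f1 (0.23) between the forms were lost. So were those of Esrrb (0.093) and Tdgf1 (0.16) with IAA. Without wild-type replicate 2 or mutated replicate 1 the log2 fold change of Pou5f1 was -0.10 in both fits (adjusted p = 0.27 and 0.31). In these bulk cultures fewer cells that transcribe a gene and less RNA per cell cannot be told apart.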

How the data were processed

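TT-seq values of 8 libraries, 2 in each of 4 groups taken from the sample titles, were used. The authors deposited 1 table of normalized read counts for 16940 genes, a signal in reads divided by 1 factor per library. The submitters' processing notes name Trim Galore, STAR, featureCounts, DESeq2 and mm10, without versions or roles. Strand handling and the counted feature are not given in the sources used here. In each library 100% of the deposited values were whole multiples of 1 step (tolerance 0.01 reads), which gave the reads behind each value. The table had 0 columns outside the series. Transcripts of the CTCF gene itself were not analysed here, and removal of the protein is as labelled.

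The main test was limma 3.58.1 (R 4.3.3) on log2(value + 1) with a pseudocount of 1, which understates changes of low genes. All 8 libraries were fitted together, 1 coefficient per group (4 residual degrees of freedom), with eBayes and its trend option. The 15818 genes whose mean was 10 or more entered, with 6 comparisons and Benjamini-Hochberg adjustment over the tested genes within each, at 0.05. On the recovered reads of the 6 libraries without mutated CTCF, edgeR 4.0.16 and DESeq2 1.42.0 were alternatives. The unit check did not accept the step of mutated CTCF replicate 2 (0.989) because it is near 1, so its group stayed out of count tests. Even so, 100% of the values of that library were whole multiples of its step. Other alternatives were a pseudocount of 0.5 or 10, all genes or a minimum mean of 50, rescaling to equal totals or by median of ratios, a fit of the compared groups alone, no trend, a replicate block, and each library left out. Positions are those of GENCODE M21, in which all 13 gene IDs have the same version. The test was checked on simulated reads with the same spread beyond read sampling in all genes and groups. That check does not cover groups whose replicates differ by unlike amounts.

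The members and lists were chosen with earlier results of these data known. A gene that the naming rule takes is not reported here and enters no Hox count, sum or span; it stayed in the fit over all genes. Values are given in full for Hox genes past the threshold in at least 1 of the comparisons of IAA, of each CTCF form with the control under IAA, and of the forms with each other, and for the 3 others with the highest mean. From each list at most 4 genes past the threshold, by size of change, are named for IAA and for the CTCF forms.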

Additional observations from a re-analysis of the deposited data

Results flagged for a closer look

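The effects of the CTCF forms against the same control with IAA differed for 3 Hox genes by the test of the difference itself (mutated against wild-type CTCF, limma, adjusted p under 0.05). On the log2 scale the difference was -0.67 for Hotairm1, -0.36 for Hoxc13 and 0.46 for Hoxc5, with 2 libraries per form. Over all tested genes 34.7% were called in this comparison.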

How the results depend on the processing

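Of the Hox calls, 24 results recomputed 422 times in all stayed on the same side of the threshold in 365, were no longer past it in 57 and reversed in 0. For the named list genes, 54 results recomputed 969 times gave 893, 76 and 0. Some of these refits keep the main log2 fold change: without the trend, with the replicate block or with the compared groups alone. Leaving out a library of another group keeps it too. In such refits a reversal was not possible, so the counts of 0 partly follow from the settings. With IAA, 6 Hox genes were called, and 2 by DESeq2 (24.9% of all genes). Against the control with IAA, wild-type CTCF had 0 calls, but 1 after median-of-ratios rescaling (32% of all genes called), 1 without the mean-variance trend (15%) and 2 by edgeR (31.8%). Mutated CTCF had 4, but 1 without the trend (20.4%). Against the untreated control, wild-type CTCF had 5, but 3 with a minimum mean of 50 (51.6% of all genes called), 3 without the trend (30.8%) and 1 by DESeq2 (30%), against 43.2% in the main test. Leaving out each library gave 4 to 6 calls with IAA (27.1% to 39.6% of all genes called), 0 to 0 for wild-type (20.7% to 32.1%) and 1 to 4 for mutated CTCF (25.1% to 36.5%) against the control with IAA, and 1 to 3 between the forms (25.1% to 34.5%). Against the untreated control it gave 2 to 5 (wild-type, 31.6% to 43.7%) and 3 to 6 (mutated, 26.8% to 39.5%); where an arm kept 1 library, that library is assumed to vary like the other groups. The cause of these changes was not tested, except that the minimum mean of 50 left 6 Hox genes to test. The replicate numbers did not pair the samples (mean correlation of deviations 0.0037 over 6 pairs of groups, -0.022 to 0.028), and with the replicate block the 6 comparisons had 6, 0, 4, 3, 5 and 6 calls, as without it, and 40.6%, 35%, 37.4%, 37.8%, 45.8% and 40.4% of all genes. The looser CTCF letters gave 33 matches against 7. Count tests of the 3 comparisons with mutated CTCF were not run. Genes near the minimum mean rest on 5 to 28 reads per library (Hoxb13, Hoxaas2, Hoxaas3 and Hoxd8).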
